A study of Mus musculus with 79 samples.

Results

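Feeding and arousal are driven by a small number of hypothalamic neuron types, each known by the neuropeptide it makes. The 8 genes Pomc, Agrp, Npy, Cartpt, Hcrt, Pmch, Gal and Nts encode such peptides or their precursors, and were taken by symbol from the 25965 genes of the deposited hypothalamic expression table, in which all 8 are present. Their mRNA was measured in 9 RNA-seq libraries, and 3 histone marks were measured at their promoters and over their gene bodies in 24 ChIP-seq libraries. All samples came from the hypothalamus of C57BL/6Babr mice aged 14 weeks. The control genotype was +/+ (5 RNA-seq animals, 3 ChIP-seq animals), and the mutant genotype was Δ/D329A (4 RNA-seq animals, 3 ChIP-seq animals). In Δ/D329A, the maternal Dnmt3a allele lacks an exon after Zp3-Cre recombination in the oocyte and the paternal allele carries the D329A substitution in the PWWP domain, the part of the DNA methyltransferase DNMT3A that binds methylated H3K36, so that D329A is the remaining functional allele in every cell of the animal. Both genotypes descend from the same cross, over several litters.

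Neurons of the arcuate nucleus make either pro-opiomelanocortin (Pomc), whose product α-MSH reduces feeding through melanocortin receptors, or agouti-related peptide (Agrp) together with neuropeptide Y (Npy), which oppose it and promote feeding. Cartpt encodes the CART peptides, which reduce feeding and are made in Pomc neurons and in several other nuclei. In the lateral hypothalamus, Hcrt encodes the orexins, needed for stable wakefulness, and Pmch encodes melanin-concentrating hormone, which promotes feeding and sleep. Gal and Nts encode galanin and neurotensin, made by neurons of many hypothalamic nuclei. The marks read here have known places: H3K4me3 lies at active or poised promoters, H3K27me3 is the Polycomb mark of repressed promoters, and H3K36me3 covers transcribed gene bodies.

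The genes differed in the base composition of their starts. In the RefSeq table of promoters on GRCm38.p6, from 250 bases before to 50 after each start, 7 of the 8 genes matched, all but Agrp. Cartpt held 26 CpG dinucleotides in this window, Npy 24, Pomc 18 and Gal 16, against a median of 7 over 32851 promoters. Hcrt held 7 CpG, Pmch 3 and Nts 3. The 250 bases before the start are shown for Cartpt and Npy, the genes with the largest promoter differences between genotypes below, and for Pmch as a start of low CpG content, with every CpG in capitals. The Cartpt window is chr13:99900684-99900933 on the minus strand, that of Npy is chr6:49822460-49822709 on the plus strand and that of Pmch is chr10:88090822-88091071 on the plus strand.
Cartpt: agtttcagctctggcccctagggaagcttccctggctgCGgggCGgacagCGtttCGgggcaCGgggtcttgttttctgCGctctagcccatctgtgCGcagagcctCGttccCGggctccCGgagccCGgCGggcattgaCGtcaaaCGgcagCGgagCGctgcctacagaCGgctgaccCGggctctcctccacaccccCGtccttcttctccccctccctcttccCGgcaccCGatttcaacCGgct
Npy: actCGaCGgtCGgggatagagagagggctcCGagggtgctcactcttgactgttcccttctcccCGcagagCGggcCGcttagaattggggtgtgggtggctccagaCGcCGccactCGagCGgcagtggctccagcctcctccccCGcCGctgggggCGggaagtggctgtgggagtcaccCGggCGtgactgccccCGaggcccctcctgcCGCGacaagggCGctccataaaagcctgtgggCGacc
Pmch: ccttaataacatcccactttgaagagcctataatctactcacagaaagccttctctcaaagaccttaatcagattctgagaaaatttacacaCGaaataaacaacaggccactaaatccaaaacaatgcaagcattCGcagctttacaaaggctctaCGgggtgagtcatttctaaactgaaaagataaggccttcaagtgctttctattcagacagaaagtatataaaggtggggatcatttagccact
The Cartpt stretch holds 22 CpG, the Npy stretch 21 and the Pmch stretch 3. The letters TATAAA on the gene strand were found for Pomc, Hcrt and Pmch, beginning at −25, −33 and −27 from the start, and in 8.32% of all promoters. The letters TGACGTCA, searched on both strands, were found for Cartpt at −112 and in 1.79% of all promoters. The letters TTCNNNGAA, searched on both strands, were found for Pmch at −177 and in 8.3% of all promoters. These 3 motifs share no letters with each other at the places found.

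Between 3837324 and 9729552 reads fell on genes in an RNA-seq library, and a ChIP-seq library had 12676361 to 30207875 uniquely mapped reads. Dnmt3a had 802 to 1320 reads in +/+ and 497 to 770 in Δ/D329A, but a total over the gene tests neither a missing exon nor a substitution, and so is no check of the labels. Δ/D329A replicate 2 held the fewest reads of the 9 RNA-seq libraries.

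The mRNA and the marks came from animals of different sex. The Y-linked genes Kdm5d, Eif2s3y, Uty and Ddx3y had 0 reads in 8 RNA-seq libraries and 1 in the other, and Xist, transcribed from the inactive X chromosome, was at 13.9 to 24.1 RPKM, as in females. In the 6 ChIP-seq input libraries coverage per tile was 0.415 to 0.429 times that of autosomes on the X chromosome and 0.433 to 0.484 times over these Y-linked genes, as in males. Each assay compares genotypes within 1 sex, and where mRNA and marks are set side by side, assay and sex cannot be told apart.

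In +/+ hypothalamus the 8 mRNAs spanned a wide range of levels, here in log2 RPKM, which is corrected for exon length and so can be compared between genes. Pmch was highest at 7.96 ± 0.42 (SD, n = 5), rank 10 of the 17839 genes tested. Hcrt followed at 6.19 ± 0.71, Cartpt at 4.77 ± 0.45 and Pomc at 3.76 ± 0.77 (SD, n = 5 each). Gal stood at 3.49 ± 0.49, Npy at 2.94 ± 0.74, Nts at 2.82 ± 0.33 and Agrp, the lowest, at 1.37 ± 0.75 (SD, n = 5 each). The lowest Pmch library lay above the highest Hcrt library, and the lowest Nts library above the highest Agrp library. Other neighbours in this order overlapped, and 2 pairs were not separated: Pomc exceeded Gal in 4 of 5 libraries by 0.27 ± 0.58, and Npy exceeded Nts in 2 of 5 libraries by 0.12 ± 0.53 (mean and SD of the difference within a library). Agrp rested on few reads, 12 to 46 in +/+ and 9 to 65 in Δ/D329A libraries, while Pmch had 1897 to 3659 and 1178 to 2125.

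**Figure D1:**
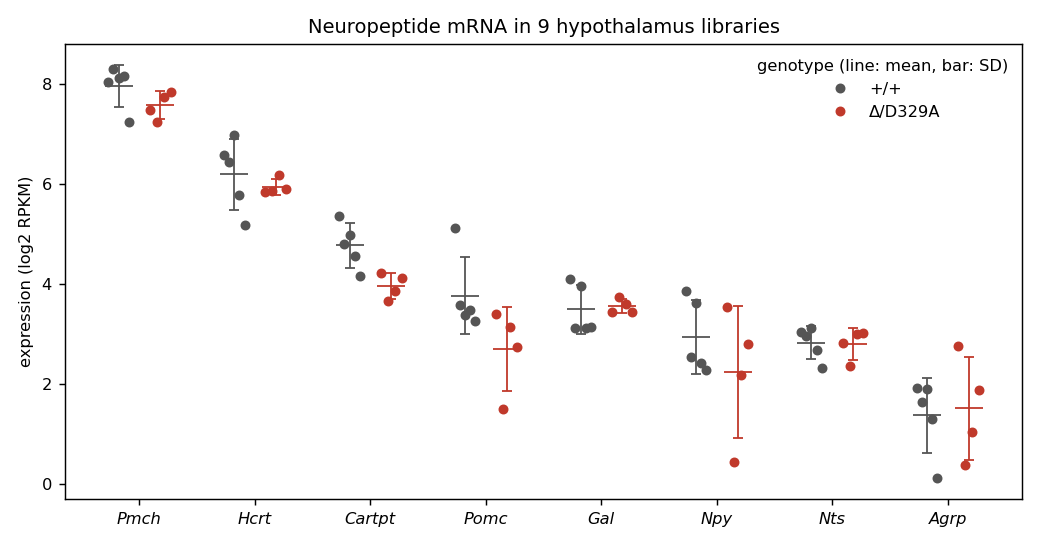
Expression in log2 RPKM (y axis) of the 8 genes (x axis, ordered by their +/+ mean), with 1 point per library, a line at the mean and a bar of 1 SD, in +/+ (5 libraries) and Δ/D329A (4 libraries). The Cartpt points of Δ/D329A lie low against those of +/+, whereas the Gal and Nts points of the genotypes interleave.

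The comparison of genotypes asks whether the mRNAs of peptides that control feeding and arousal differ when D329A is the functional Dnmt3a allele. None of the 8 genes was called by limma at an adjusted p under 0.01 over all genes tested, where 19 of 17839 genes (0.107%) were called, 15 higher and 4 lower in Δ/D329A, and 1360 had an unadjusted p under 0.05. The split of the calls moved with the scaling, to 22 higher and 12 lower with median centring, and 16 and 16 with quantile normalization. It was 40 and 37 with edgeR, which also differs in its test and in the 13890 genes tested. Leaving out the Δ/D329A libraries in turn lowered the 19 calls to between 1 and 5, so that each mutant library matters to the count over all genes. The mean level was lower in Δ/D329A for 6 of the 8 genes. In none of the 8 did the Δ/D329A libraries all lie below the +/+ libraries, a pattern found in 1.23% of all genes tested. The fitted differences ranged from −1.06 for Pomc to 0.14 for Agrp on the log2 scale, beside a median of 0.06 over all genes.

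Cartpt showed the lowest unadjusted p of the 8 genes. Its 5 +/+ libraries, replicates 1 to 5, stood at 5.36, 4.79, 4.98, 4.55 and 4.16 log2 RPKM. Its 4 Δ/D329A libraries stood at 4.21, 3.64, 3.85 and 4.12. The groups overlapped by a single pair of libraries, Δ/D329A replicate 1 and +/+ replicate 5, and all 4 mutant values lay below the +/+ median. The log2 difference was −0.81 (SE 0.23, 95% CI −1.32 to −0.30), which is 0.57 times the +/+ level. The limma p was 0.00537, or 0.355 after adjustment over all genes, and the two-sided exact permutation test gave p = 0.0238, where 5 against 4 libraries allow no value under 0.00794.

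The call for Cartpt depended on how library-wide level was treated. The median log2 RPKM of a library ranged from 0.81 to 1.49 among +/+ and from 0.91 to 1.22 among Δ/D329A, and was lowest in the +/+ library with the least Cartpt. With each library centred on its own median, Cartpt stood at 3.87, 3.65, 3.78, 3.67 and 3.36 in +/+ and at 2.99, 2.74, 2.65 and 2.97 in Δ/D329A (log2 over the library median). On this scale the genotypes did not overlap, a pattern found in the lower direction in 2.86% of all genes. The centred log2 difference was −0.83 (SE 0.12) with an limma adjusted p of 0.00761, and Cartpt was then 1 of 12 genes called lower among 17839 (0.0673%). Quantile normalization gave an limma adjusted p of 0.0035, and on the reads recovered from the table edgeR gave 0.00246 and DESeq2 2.26e-07. The adjusted p of Cartpt over the 20 alternatives run ranged from 2.26e-07 to 0.642, its log2 difference stayed between −0.96 and −0.66, and it was called in 4 of them. In bulk tissue, fewer cells of a type and less RNA per cell cannot be told apart.

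Pomc, the precursor of α-MSH, had the largest fitted difference. Its +/+ libraries stood at 5.12, 3.57, 3.37, 3.48 and 3.26 log2 RPKM and its Δ/D329A libraries at 3.40, 1.50, 3.14 and 2.74. In +/+, replicate 1 stood apart at 643 reads beside 139 to 187 in the others. In Δ/D329A, replicate 2 was the low library, with 30 reads. The log2 difference was −1.06 (SE 0.45, 95% CI −2.05 to −0.08) with a limma p of 0.0371, or 0.355 adjusted, and an exact permutation p of 0.0397, two-sided. Without +/+ replicate 1 the difference was −0.72, and without Δ/D329A replicate 2 it was −0.66, with limma adjusted p of 0.371 and 0.642. Pomc lies on chromosome 12 from 3954951 to 3960618 (GRCm38), 40508 bp beyond the end of Dnmt3a itself, the mutated gene in these animals.

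Pomc is also made in the pituitary, which adjoins the hypothalamus, so pituitary markers were read beside it. All 10 genes of the anterior and intermediate pituitary list were present, 7 passed the filter, 5 of these were negative and 0 were called, and their summed level ranged from 1.05 to 17.4 RPKM in +/+ and from 3.49 to 12.1 RPKM in Δ/D329A. In +/+ replicate 1, the library with the most Pomc, the sum was the lowest, 1.05 RPKM. The spread of this sum largely reads the hormone genes Gh, Prl and Cga, which reached 4.97, 9.79 and 3.06 RPKM in +/+. The other listed genes reached at most 0.579 RPKM there. Hormone genes of the anterior lobe had reads, with Gh, growth hormone, at 0 to 67 in +/+ and 6 to 72 in Δ/D329A (log2 difference 1.93, SE 1.203, limma adjusted p = 0.511), Prl at 2 to 137 and 3 to 38, and Cga at 0 to 39 and 5 to 39. Fshb and Pou1f1 had at most 1 read in any library. Tbx19, the factor of pituitary Pomc cells, had 6 to 14 reads in +/+ and 0 to 6 in Δ/D329A, with a log2 difference of −1.66 (SE 0.55, limma adjusted p = 0.355). Pax7, of the same list, had 4 to 13 reads in +/+ and 0 to 7 in Δ/D329A and did not pass the filter. The part of pituitary tissue in the Pomc values was not tested.

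Npy and Agrp, the peptides of one arcuate cell type, varied more between animals than between genotypes. Npy stood at 3.86, 2.53, 3.62, 2.42 and 2.27 log2 RPKM in +/+ and at 3.53, 0.43, 2.18 and 2.80 in Δ/D329A. Agrp stood at 1.92, 1.63, 1.90, 1.29 and 0.11 in +/+ and at 2.75, 0.38, 1.04 and 1.88 in Δ/D329A. In both genes Δ/D329A replicate 1 was the highest mutant library and replicate 2 the lowest. The log2 difference of Npy was −0.70 (SE 0.57, 95% CI −1.96 to 0.56, limma adjusted p = 0.683), and it was −0.10 without Δ/D329A replicate 2. That library held 8 Npy reads. The log2 difference of Agrp was 0.14 (SE 0.49, 95% CI −0.95 to 1.22, limma adjusted p = 0.962). Both intervals span more than 2 log2 units, and these libraries do not tell the differences inside them apart.

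The peptides of the lateral hypothalamus overlapped between genotypes. Pmch lay between 7.23 and 8.29 log2 RPKM in the +/+ libraries and between 7.22 and 7.83 in those of Δ/D329A, a log2 difference of −0.39 (SE 0.28, 95% CI −1.01 to 0.23, limma adjusted p = 0.608). Hcrt lay between 5.18 and 6.98 in the +/+ libraries and between 5.84 and 6.18 in those of Δ/D329A, a log2 difference of −0.25 (SE 0.33, 95% CI −0.97 to 0.47, limma adjusted p = 0.861). In both genes all 4 Δ/D329A values lay below the +/+ median, within the +/+ range for Hcrt and, but for replicate 2, for Pmch. The transcript 4930547N16Rik overlaps Pmch on the opposite strand with 3 to 21 reads per library. Whether reads were counted by strand is not given in the sources used here, and the neighbour's count is small beside that of Pmch.

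Gal and Nts had the narrowest intervals. Gal lay between 3.12 and 4.10 log2 RPKM in the +/+ libraries and between 3.44 and 3.72 in those of Δ/D329A, a log2 difference of 0.06 (SE 0.23, 95% CI −0.45 to 0.58, limma adjusted p = 0.963). Nts lay between 2.32 and 3.12 in the +/+ libraries and between 2.35 and 3.02 in those of Δ/D329A, a log2 difference of −0.03 (SE 0.20, 95% CI −0.47 to 0.42, limma adjusted p = 0.986). The exact permutation p was 0.833 for Gal and 0.905 for Nts, two-sided.

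**Figure D2:**
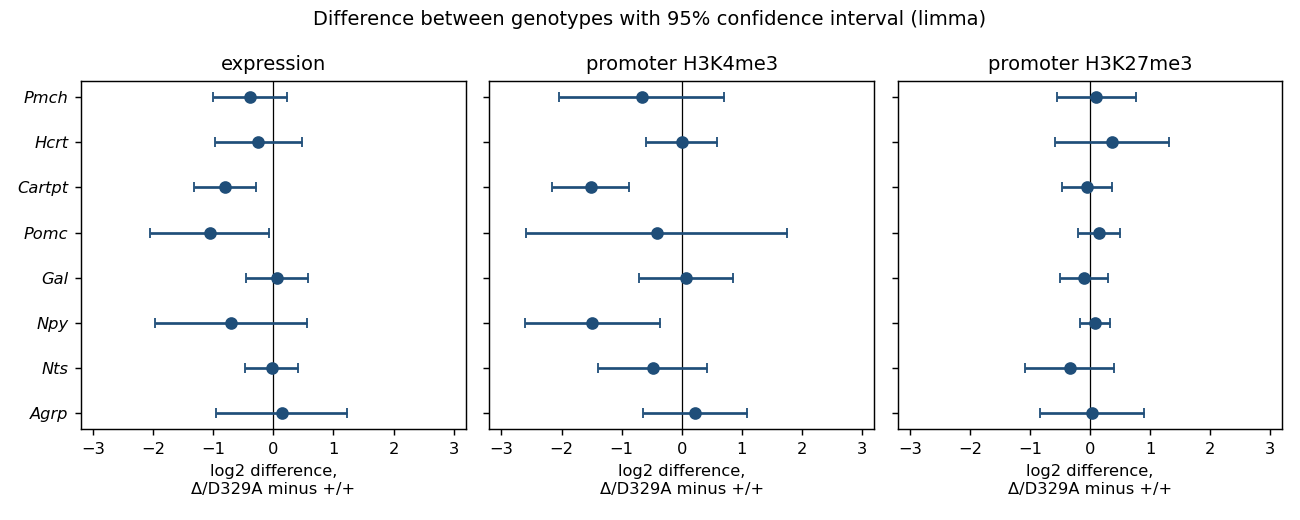
Log2 difference of Δ/D329A minus +/+ (x axis) with its 95% confidence interval from limma for each gene (y axis), for expression (5 and 4 libraries) and for H3K4me3 and H3K27me3 at the promoter (3 and 3 animals). The H3K4me3 intervals of Cartpt and Npy lie below 0, and every H3K27me3 interval holds 0.

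At promoters, taken from 1500 bp before to 500 bp after the start, H3K4me3 differed most at Cartpt and Npy. The unit is RPM, the reads in a tile of 2 kb scaled by the uniquely mapped reads of the library. At the Cartpt promoter the 3 +/+ animals had 4.36, 3.86 and 3.45 RPM and the 3 Δ/D329A animals had 1.57, 1.42 and 0.968 RPM. At the Npy promoter the +/+ animals had 6.29, 6.88 and 5.75 RPM and the Δ/D329A animals 1.10, 3.90 and 2.36 RPM. In both genes every mutant animal lay below every +/+ animal, as was the case at 4.22% of all promoters. The tile nearest the middle of the promoter held 96 to 122 reads in +/+ and 27 to 41 in Δ/D329A at Cartpt, and 85 to 95 against 15 to 45 at Npy. Input, read in the same animals, stayed between 0.356 and 0.556 RPM at Cartpt and between 0.753 and 1.18 RPM at Npy.

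The log2 difference of promoter H3K4me3 was −1.51 (SE 0.26, 95% CI −2.15 to −0.87) for Cartpt, or 0.351 times the +/+ level, and −1.49 (SE 0.45, 95% CI −2.61 to −0.37) for Npy, or 0.356 times. The limma p was 0.0014 for Cartpt and 0.0182 for Npy. In the fit over all 25952 promoters, 0 were called at an adjusted p under 0.05 (0.0%), 900 had an unadjusted p under 0.05, and the adjusted p was 0.92 for Cartpt and 1 for Npy. On simulated data this fit missed most changes somewhat smaller than these, so 0 calls do not show that promoters were alike. An exact permutation test of 3 against 3 animals cannot give a p under 0.1, the value it gave for both. Over promoters at or above 0.2 RPM in at least 3 of the 6 libraries, limma called both genes, with adjusted p of 6.21e-05 for Cartpt and 3.39e-06 for Npy, among 220 lower promoters of 19682 (1.12%). Npy had the smaller of these adjusted p although its Δ/D329A animals were spread more widely than those of Cartpt. The filtered values thus do not measure the spread between animals at each promoter. On the reads of the middle tile, edgeR called 77 of 15880 promoters and gave an adjusted p of 0.0278 for Cartpt and 0.0703 for Npy. Under the filter, both stayed called when any 1 of the 6 libraries was left out, among 129 to 588 promoters called in all. These fits were an alternative chosen after the data were seen. Without Δ/D329A replicate 1 the Npy difference was −1.03, and without replicate 2 it was −1.90.

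The H3K4me3 libraries were split at the largest gap, on a log scale, of their coverage of the mitochondrial genome, into a set at 14.8 to 19.2 RPM per tile and a set at 29.5 to 44.6 RPM, and both sets hold both genotypes. Within the low set (2 +/+, 1 Δ/D329A) the log2 difference at the promoter was −1.33 for Cartpt and −2.48 for Npy. Within the high set (1 +/+, 2 Δ/D329A) it was −1.48 for Cartpt and −0.90 for Npy. Each set has 1 library in an arm, and since the genotypes did not overlap at either promoter, the sign within a set was fixed beforehand. The median promoter moved by −0.07, and centring each library on its median gave −1.30 for Cartpt and −1.28 for Npy.

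**Figure D3:**
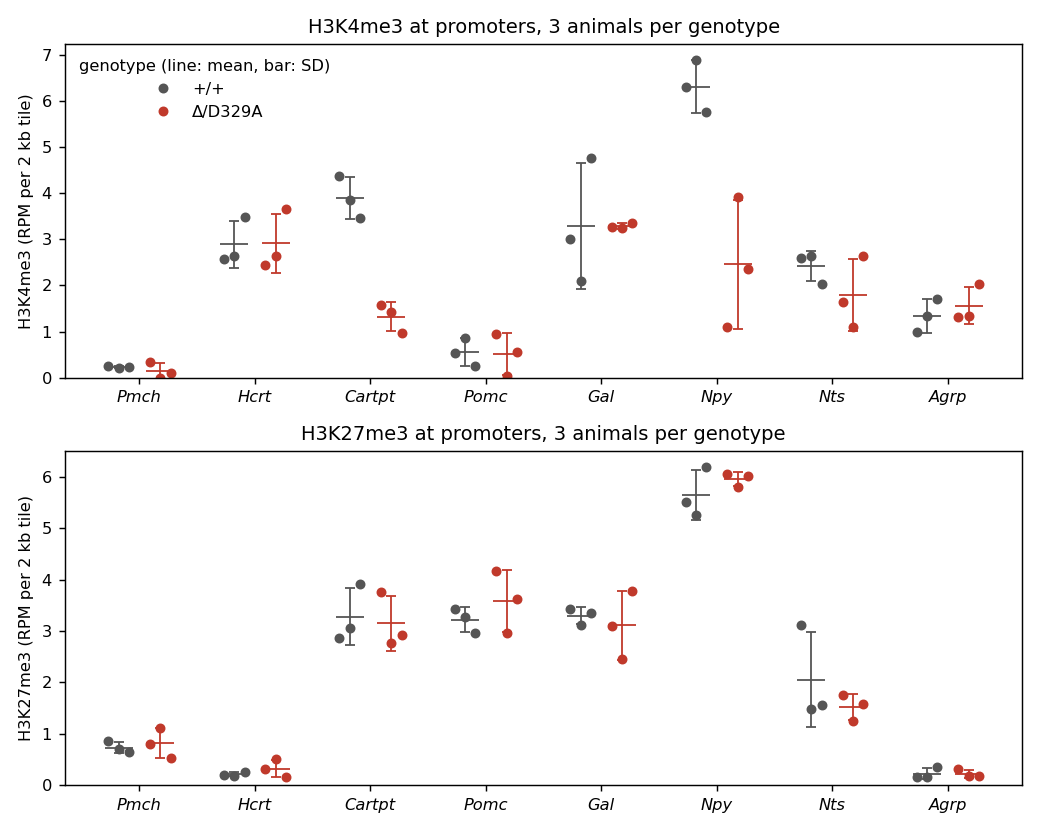
H3K4me3 and H3K27me3 (y axes, RPM per 2 kb tile) averaged over the promoter of each gene (x axis, in the order of expression), with 1 point per animal, a line at the mean and a bar of 1 SD. The 3 Δ/D329A animals lie below the 3 +/+ animals in H3K4me3 at Cartpt and Npy, and not in H3K27me3.

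At the other 6 promoters the genotypes overlapped in H3K4me3. Hcrt had 2.89 ± 0.51 RPM in +/+ and 2.91 ± 0.64 in Δ/D329A, and Gal had 3.29 ± 1.36 and 3.28 ± 0.06 (SD, n = 3 each). Nts had 2.42 ± 0.33 RPM in +/+ and 1.79 ± 0.78 in Δ/D329A, a log2 difference of −0.48 (SE 0.36). Outside its promoter, in the tile centred 2.42 kb after the start, every Δ/D329A animal lay below every +/+ animal, with means of 1.13 and 2.44 RPM. Every Δ/D329A animal lay above in the tiles at 2.05 kb of Pomc (0.805 and 0.0651 RPM) and −4.71 kb of Npy (1.14 and 0.846 RPM). The share of all tiles with groups apart was not computed. Agrp had 1.34 ± 0.36 and 1.56 ± 0.41 RPM. The promoters of Pomc (0.555 ± 0.301 and 0.510 ± 0.452 RPM) and Pmch (0.228 ± 0.027 and 0.147 ± 0.178 RPM) lay below input in all 6 animals. Pmch was thus the gene with the highest mRNA and the lowest promoter H3K4me3 of the 8, at the 27.7th percentile of all promoters in +/+.

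H3K27me3 at the promoters divided the genes in another way, without a difference between genotypes beyond the spread of animals. Npy had 5.65 ± 0.49 RPM in +/+, at the 98.9th percentile of all promoters, and 5.96 ± 0.13 in Δ/D329A (SD, n = 3 each). Gal, Cartpt and Pomc had 3.30 ± 0.16, 3.28 ± 0.56 and 3.22 ± 0.24 RPM in +/+, between the 95.3rd and the 95.5th percentile, and 3.11 ± 0.67, 3.15 ± 0.54 and 3.59 ± 0.61 in Δ/D329A. Nts had 2.05 ± 0.92 RPM in +/+, at the 90.4th percentile, and 1.52 ± 0.26 in Δ/D329A. Pmch, Agrp and Hcrt had 0.728, 0.218 and 0.206 RPM in +/+, between the 33.6th and the 59.6th percentile. The first 5 promoters lay above input in all 6 animals, Pmch did in 1 animal of each genotype, and Agrp and Hcrt did in none. The 4 genes with 16 or more CpG were the 4 with the most H3K27me3 in +/+, and in a mixed tissue the data do not tell whether H3K4me3 and H3K27me3 lay on the same cells.

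The log2 differences of promoter H3K27me3 ranged from −0.34 for Nts to 0.37 for Hcrt, and all 8 intervals held 0. No promoter of 25952 was called for H3K27me3 (0.0%) by limma, 2310 had an unadjusted p under 0.05, and edgeR on the middle tile called 185 of 12477, with none of the 8 genes among them. At Cartpt and Npy, where H3K4me3 was lower, the H3K27me3 difference was −0.06 (95% CI −0.47 to 0.36) and 0.08 (95% CI −0.18 to 0.33).

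Along the gene, the H3K4me3 difference at Cartpt and Npy covered the whole peak. At Cartpt the highest tile in +/+ was centred 0.68 kb after the start, with 6.44 to 8.10 RPM in +/+ and 1.81 to 2.63 RPM in Δ/D329A. At Npy it was centred 0.29 kb after the start, with 5.91 to 7.45 RPM in +/+ and 1.25 to 4.26 RPM in Δ/D329A. H3K27me3 peaked in the same tiles in both genes, at 4.09 to 5.45 RPM against 3.82 to 5.18 at Cartpt and at 5.70 to 6.64 against 6.11 to 7.01 at Npy. Off these tiles, H3K27me3 of every Δ/D329A animal lay below every +/+ animal at 1.68 kb of Cartpt and −2.71 kb of Npy. It lay above at 4.68 kb of Cartpt and 3.29 kb of Npy. Such tiles were not particular to these genes. H3K27me3 was also lower without overlap at Nts (−2.58, 2.42 and 3.42 kb), Pomc (−3.95 and 2.05 kb) and Hcrt (2.93 kb), and higher at Agrp (−1.7 kb). The share of all tiles with H3K27me3 groups apart was not computed. The start of the nearest other gene lay 115 kb from that of Cartpt and 221 kb from that of Npy.

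**Figure D4:**
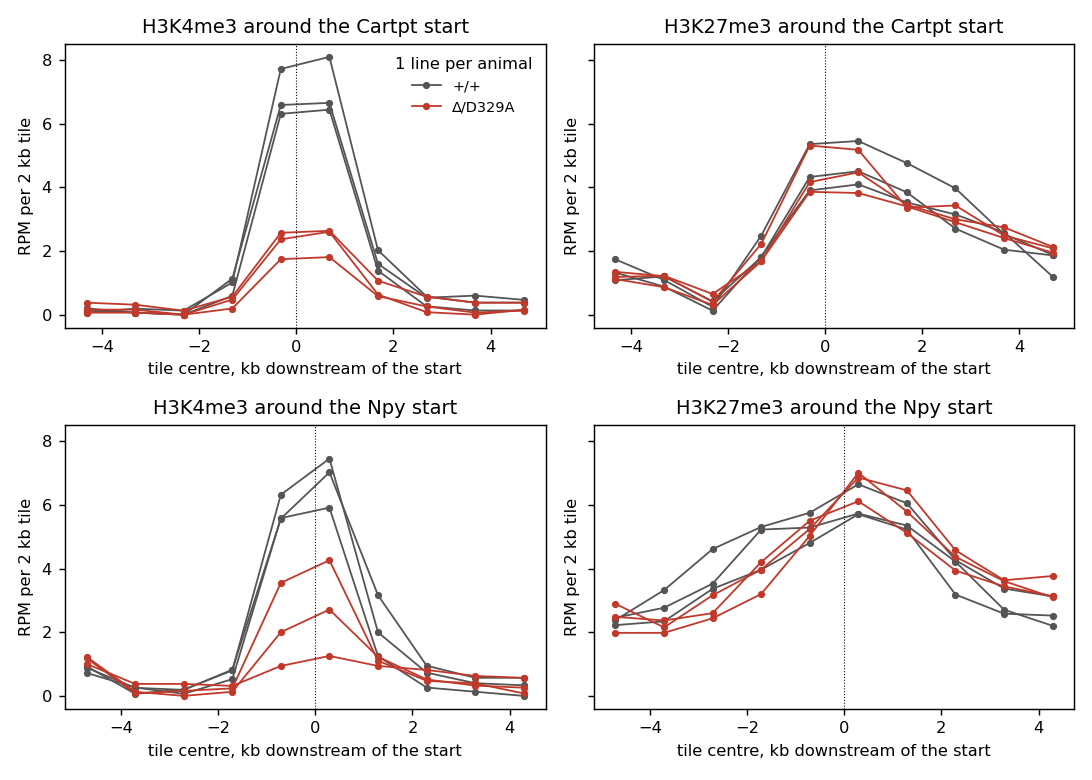
H3K4me3 and H3K27me3 (y axes, RPM per 2 kb tile) against the position of the tile centre in kb downstream of the start of Cartpt and Npy (x axes), with 1 line per animal. The H3K4me3 peaks of the 3 Δ/D329A animals lie below those of the 3 +/+ animals at both genes, while the H3K27me3 lines of the genotypes cross.

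Over gene bodies, from 500 bp after the start to the gene end, Cartpt again stood lower in H3K4me3. The +/+ animals had 5.06, 4.12 and 3.91 RPM and the Δ/D329A animals 1.85, 1.62 and 1.19 RPM, and groups apart in this direction were found in 4.37% of all gene bodies. The log2 difference was −1.44 (SE 0.18, 95% CI −1.90 to −0.99), with a limma p of 0.000372 and an adjusted p of 0.377. In that fit 1 of 25354 gene bodies (0.00394%) was called, and none of the 8 genes was. Over gene bodies at or above 0.2 RPM in at least 3 libraries, Cartpt was called at an limma adjusted p of 0.0189, among 19 lower of 19426 (0.0978%). This call was lost without Δ/D329A replicate 1 (limma adjusted p = 0.0552) and without Δ/D329A replicate 3 (0.0528). The body of Cartpt is covered by 2 tiles. The tile centred at 0.68 kb also reaches the promoter, so that the body value is no independent replicate of the promoter value.

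Pomc had more H3K4me3 over its body than at its promoter. Among the tiles read around the start, the last, centred 4.05 kb after it, was the highest, with 4.68 to 5.32 RPM in +/+ and 3.76 to 6.0 RPM in Δ/D329A. The mean over the 5 tiles of the body, 5.152 RPM in +/+ and 5.485 RPM in Δ/D329A, was above that of this tile (4.954 and 4.885 RPM). The highest tile of the body thus lay farther on. A tile of 2 kb there runs past the gene end, so the peak cannot be placed inside the gene. Over the body the log2 difference of Pomc was 0.08 (SE 0.13, 95% CI −0.24 to 0.40). The Npy body had 0.643 RPM in +/+ and 0.558 RPM in Δ/D329A on average, with overlap. The H3K4me3 over the body of Agrp (17.0 RPM in +/+) rose to a highest tile 2.30 kb after the start. It lies near the start of Atp6v0d1, 2.25 kb after that of Agrp, and the tiles do not separate these genes. At Hcrt the body tile, centred at 0.93 kb, had 11.6 RPM in +/+ and the next, at 1.93 kb, 9.23 RPM. The highest tile, 13.2 RPM, was centred at 3.93 kb, near the start of Kcnh4, 2.99 kb after that of Hcrt. The body tile of Hcrt was thus a maximum apart from that near Kcnh4.

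In the remaining mark and region combinations none of the 8 genes was called. For body H3K27me3, limma called 2 of 25354 gene bodies (0.00789%). Pomc had 1.38, 1.29 and 1.25 RPM in +/+ and 1.22, 0.955 and 1.04 RPM in Δ/D329A, a log2 difference of −0.27 (SE 0.10, limma adjusted p = 0.382), with the groups apart in this direction as in 14.0% of all gene bodies. Cartpt and Npy had body H3K27me3 at the 98.6th and 97.8th percentile in +/+, with log2 differences of −0.13 (SE 0.13) and 0.16 (SE 0.10).

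H3K36me3 was low over most of these genes. In +/+ the body level lay between the 6.41st percentile for Cartpt and the 34.2nd for Npy in 7 of the 8 genes, below input on average, and at the 70.5th for Pmch with 1.29 ± 0.17 RPM (SD, n = 3). Limma called 1 of 25354 gene bodies for this mark (0.00394%). Hcrt had 0.263, 0.332 and 0.366 RPM in +/+ and 0.0487, 0.147 and 0.210 RPM in Δ/D329A, a log2 difference of −0.89 (SE 0.29, limma adjusted p = 0.267), and groups lower without overlap were found in 14.1% of gene bodies. Agrp had 0.219, 0.284 and 0.105 RPM in +/+ and 0.438, 0.295 and 0.420 RPM in Δ/D329A, a log2 difference of 0.71 (SE 0.27, limma adjusted p = 0.305), and groups higher without overlap were found in 7.07%. Both rest on a single tile with at most 9 reads in a library. At promoters 6 of 25952 were called for H3K36me3 (0.0231%), none of them of these genes. The Pmch promoter had 0.903 ± 0.068 RPM in +/+ and 0.728 ± 0.091 in Δ/D329A (SD, n = 3 each, log2 difference −0.28, SE 0.13, limma adjusted p = 0.767), a separation of groups in the lower direction found at 2.67% of promoters.

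Across the 9 libraries the 8 mRNAs tended to vary together once the genotype means were removed. Pearson's r was then above 0 in all 28 pairs, with a median of 0.63. Taken within a genotype, r was below 0 in 0 of 28 pairs among the 5 +/+ libraries and in 8 of 28 among the 4 Δ/D329A libraries, 6 of them among the 7 pairs with Gal. The highest were Agrp with Npy (r = 0.87, Spearman's rho = 0.93) and Agrp with Cartpt (r = 0.85, rho = 0.97). By an exact permutation test within genotypes, with Benjamini-Hochberg adjustment over the 28 pairs, 4 pairs passed 0.05. These were Agrp with Cartpt and Npy with Cartpt (r = 0.80, rho = 0.95), both at adjusted p = 0.00486 (unadjusted 0.000347, the smallest the arrangements can give), Hcrt with Nts (r = 0.81, rho = 0.83) at adjusted p = 0.013 and Agrp with Npy at adjusted p = 0.0365. By Spearman's rho 3 pairs passed, the same without Hcrt and Nts. Without the 2 libraries farthest from the median of the first gene, r was 0.81 for Agrp with Npy, 0.66 for Agrp with Cartpt, 0.89 for Npy with Cartpt and 0.61 for Hcrt with Nts.

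This co-variation moved with the level of the whole library. With each library centred on its median first, 19 of 28 pairs kept r above 0, the median r was 0.28 and no pair passed after adjustment. Agrp with Npy then had r = 0.81 and rho = 0.78 (exact permutation p = 0.0354, adjusted 0.331), and Agrp with Cartpt r = 0.84 and rho = 0.77 (exact permutation p = 0.0177, adjusted 0.331). Hcrt with Nts had r = 0.54. The summed level of 8 markers that define the hypothalamus (Nkx2-1, Nr5a1, Sim1, Rax, Oxt, Avp, Trh and Crh), all with reads, ranged from 158.5 to 356.5 RPKM in +/+ and from 208.9 to 331.2 RPKM in Δ/D329A, and was lowest in +/+ replicates 4 and 5. Oxt (76.2 to 195 RPKM) and Avp (60.3 to 124 RPKM) made up most of the +/+ sums. The sums were not centred, and +/+ replicates 4 and 5 also had the lowest library medians, 0.88 and 0.81 log2 RPKM. The part of dissection in these correlations was not tested.

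**Figure D5:**
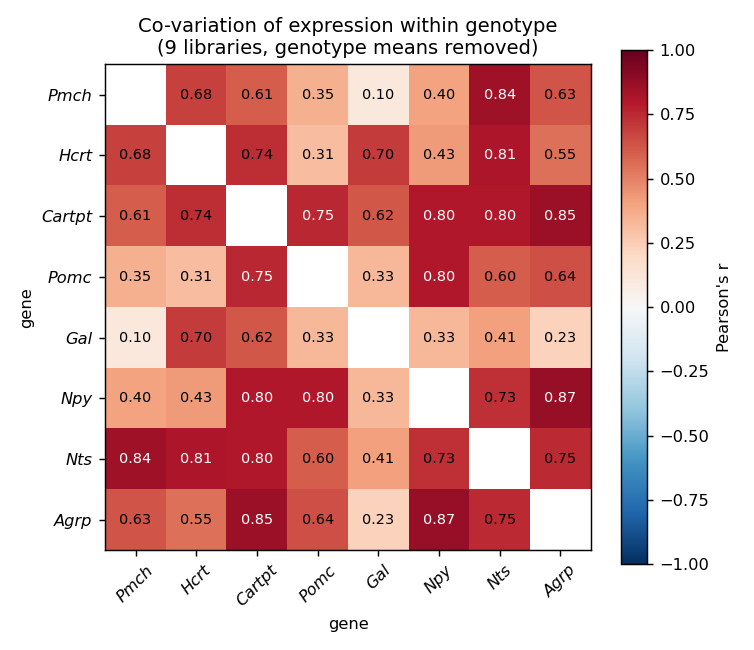
Pearson's r between the expression of each pair of the 8 genes (both axes, in the order of expression) over 9 libraries with the genotype means removed, coloured from −1 to 1. Over both genotypes together all 28 values are above 0, from 0.10 for Pmch with Gal to 0.87 for Agrp with Npy, before libraries are centred on their medians.

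Among 11506 genes at or above 1 RPKM on average, those whose 9 values followed each peptide gene most closely were named as a description, without a test. Here neither genotype means nor library medians were removed, so r includes differences between genotypes and in library-wide level. For Cartpt they were Tacr3, the neurokinin B receptor (r = 0.99), and Arhgap27 (r = 0.98). For Pomc they were Ppapdc1b (r = 0.97) and Mr1 (r = 0.96), for Npy Armcx5 (0.98) and Wdsub1 (0.95), and for Agrp Epha4 and Nqo2 (0.96 each). For Pmch they were Cdh9 and Slco1a4 (0.98 each), for Hcrt Rpp14 (0.97) and Snrpb2 (0.95), for Gal Ccdc97 (0.95) and Camk2n2 (0.94), and for Nts Utp3 (0.99) and Npm1 (0.98).

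The partners of the peptides were read from fixed lists, and none of their genes was called. Of 10 genes that process and store peptides, 0 passed the test, and their median log2 difference was −0.09 beside 0.06 over all genes. The largest were Pam, which amidates peptides such as α-MSH and NPY (−0.44, SE 0.22, limma adjusted p = 0.355), and Pcsk1, a convertase of pro-opiomelanocortin (−0.42, SE 0.22, limma adjusted p = 0.398). Of 13 receptors of these peptides in the table, 12 were tested, 10 had a negative difference and 0 passed, with a median of −0.22. Hcrtr1, an orexin receptor, differed by −0.67 (SE 0.30, limma adjusted p = 0.355) and Npy1r by −0.58 (SE 0.24, limma adjusted p = 0.355).

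Of 8 transcription factors of the neurons that make these peptides, 0 passed, with a median of 0.00. Nhlh2, expressed in arcuate Pomc neurons, had a log2 difference of −0.72 (SE 0.20, limma adjusted p = 0.338). Lhx9, a factor of orexin neurons and also of the thalamus, had 1.18 (SE 0.30, limma adjusted p = 0.277), while Hcrt itself differed by −0.25. Of 16 other hypothalamic neuropeptides, 10 had a negative difference, 4 had an unadjusted limma p under 0.05 and 0 passed, with a median of −0.07. The largest were Kiss1 (−1.28, SE 0.49, limma adjusted p = 0.355), which encodes kisspeptin, and Gnrh1 (1.10, SE 0.36, limma adjusted p = 0.355), which encodes gonadotropin-releasing hormone. Both rest on few reads. Kiss1 had 8 to 48 in +/+ and 2 to 11 in Δ/D329A, and Gnrh1 had 4 to 6 and 3 to 16. The list of hypothalamic markers had a median of 0.01, with the largest differences for Sim1 (−0.82, SE 0.17, limma adjusted p = 0.155) and Crh (0.71, SE 0.34, limma adjusted p = 0.355).

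Markers of neighbouring tissue were read beside these values, and all listed genes in the table had reads. All 5 thalamic markers had a positive difference, with a median of 0.73 and 0 called, and their summed level was 8.99 to 13.3 RPKM in +/+ and 13.3 to 30.4 RPKM in Δ/D329A. The largest were Gbx2 (1.79, SE 0.45, limma adjusted p = 0.255) and Rora (0.75, SE 0.19, limma adjusted p = 0.268). Of the markers of cortical projection neurons, 3 of 4 tested were positive with a median of 0.81 and 0 called, and the list summed to 1.63 to 2.54 RPKM in +/+ and 2.25 to 3.62 RPKM in Δ/D329A, with Tbr1 at 1.97 (SE 0.38, limma adjusted p = 0.119). Of 5 striatal markers 3 were negative with a median of −0.13 and 0 called, and they summed to 7.26 to 12.6 and 9.27 to 10.4 RPKM, with Ppp1r1b at 1.01 (SE 0.20, limma adjusted p = 0.144). Of 5 choroid plexus markers 2 were negative with a median of 0.08 and 0 called, and they summed to 3.90 to 5.27 and 4.28 to 8.48 RPKM, with Ttr at 1.82 (SE 0.40, limma adjusted p = 0.187) and Kcnj13 at 1.12 (SE 1.02, limma adjusted p = 0.743). The part of tissue composition in the lower Cartpt and Pomc values was not tested.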

How the data were processed

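Expression was taken from a table of 25965 genes, in which the authors deposited log2 RPKM values from SeqMonk, made from trimmed reads mapped to GRCm38 with HISAT2 and counted over merged exons. A gene without a read is held there at the level of 0.9 reads. Histone marks came from 2 kb tiles spaced by 1 kb. The deposited signal of a tile is its read number normalised to how many reads were mapped uniquely (RPM), without subtraction of input. Per the labels, Trim Galore 0.4.3, HISAT2 2.0.5 and Bowtie2 2.3.2 were used, and the study's methods give other versions. ChIP was native, from MNase-digested chromatin, and each ChIP-seq animal gave 3 marks and an input. The authors left out 1 further Δ/D329A RNA-seq library as of low quality. Bisulfite libraries were not analysed here.

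Expression was compared with limma 3.58.1 (variance as a trend on the mean, R 4.3.3). Genes needed 0.1 RPKM or more in 4 libraries, and calls an adjusted p (Benjamini-Hochberg) under 0.01. A mark was averaged over the tiles centred within the promoter or gene body. These means were fitted by limma as log2(RPM + 0.1), which understates fold changes of low regions, with calls at an adjusted p under 0.05. Regions too short for a tile centre took the nearest tile. Mitochondrial genes were left out. Exact permutation tests are two-sided. Reads recovered from the deposited values, whole within 0.02 reads for 25963 of 25965 genes and within 0.01 reads for the tiles, were used for edgeR 4.0.16 and DESeq2 1.42.0 as alternatives, beside other filters, scalings, pseudocounts and left-out libraries. The fits were tested on simulated data, on which limma missed most changes of moderate size in expression and at promoters, so that a gene that was not called is not shown to be unchanged. Replicates are separate animals. In RNA-seq and the 3 marks they differed by more than the sampling noise of reads, whereas all pairs of input libraries agreed within it. Values were summarised with Python 3.11.15, pandas 2.3.3 and scipy 1.17.1.

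Beside the 8 genes, the text names the 2 tested genes of each list with the largest absolute difference, the 2 genes most correlated with each member, and genes that overlap a member or start within 2 kb of it. Some genes that this rule names are not reported here. Prl, Cga, Fshb, Pou1f1, Pax7, Atp6v0d1, Kcnh4 and the Y-linked genes with Xist were named after their values or positions were seen. The members and lists were chosen with earlier results of these data known.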

Additional observations from a re-analysis of the deposited data

Results flagged for a closer look

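In a test for a single sample far from the others (the gap to its nearest neighbour over the range of the group, read against Dixon's critical value), 3 of 16 groups of expression values stood out, where chance alone gives about 1 in 20. Pomc was 5.12 log2 RPKM in +/+ replicate 1, the highest of 5, with the gap taking 0.835 of the range. Pmch was 7.23 log2 RPKM in +/+ replicate 5, the lowest of 5, with the gap taking 0.755 of the range. Hcrt was 6.18 log2 RPKM in Δ/D329A replicate 3, the highest of 4, with the gap taking 0.833 of the range. The 3 values come from 3 libraries.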

How the results depend on the processing

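Of the 8 genes, limma called 0 for expression, and 1, Cartpt, was called with median centring, quantile normalization, edgeR or DESeq2. Under the other alternatives, leaving out each library in turn included, 0 were called. For promoter H3K4me3, 0 became 2 (Cartpt and Npy) with the filter at 0.2 RPM, and 1 (Cartpt) with edgeR on the middle tile. Under the filter it was also 2 with any library left out, among 129 to 588 promoters called in all. With the mitochondrial sets as a block it was 2 as well, among 531 of 19682 promoters. For body H3K4me3, 0 became 1 (Cartpt) with that filter and with it and the block, and 0 to 1 with it and a library left out. The filter changes which regions enter the fit, and otherwise the cause was not tested. For H3K27me3 and H3K36me3 the count was 0 under every alternative. The pairs of genes whose co-variation passed went from 4 to 0 with median centring. The filtered leave-out and block fits, edgeR on tiles and the centred co-variation were chosen after seeing the data.

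Of 160 recomputed expression differences of the 8 genes, 160 stayed within 1 SD of the replicates, and 11, none of them called, changed sign. Over all genes, 19 calls became 1 to 19 with a library left out, 11 to 35 with other limma settings, 77 with edgeR and 245 with DESeq2. Called promoters went from 0 to 271 for H3K4me3 and to 219 for H3K27me3 with the filter, to 28 and 54 with median centring, and for H3K36me3 from 6 to between 0 and 19. Called gene bodies went from 1 to between 0 and 129 for H3K4me3, from 2 to between 0 and 75 for H3K27me3, and from 1 to between 0 and 10 for H3K36me3.

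Replicate numbers recur in both genotypes, and the deviations of same-numbered libraries correlated at −0.05 to 0.14 in RNA-seq and −0.26 to 0.23 in ChIP-seq. The labels give no pairing beyond the number. A library correlated best with its own number in the other genotype in 2 of 8 cases in RNA-seq and in 11 of 18 in ChIP-seq, with all 6 for H3K27me3, a hint from the data and not the design. With the replicate block, 0 of the 8 genes were called in each of the 7 comparisons, and 16 genes in all were called for expression. Depth limits Npy and Agrp, with 8 and 9 reads in their lowest library, Δ/D329A replicate 2. It also limits H3K36me3 over the Hcrt and Agrp bodies, with at most 9 reads in a tile.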
